A study of Mus musculus with 2 samples.

Results

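Splenic B cells that carried transcripts of both Cd93 and Vpreb3, a pair of genes associated with B cells newly arrived from the bone marrow, were examined in a pair of droplet single-cell libraries. A barcode counted as such a cell if it had at least 300 genes, at least 500 UMIs (unique molecular identifiers, each standing for 1 captured RNA molecule) and under 10% mitochondrial UMIs. It also had to hold at least 4 UMIs of the B cell receptor chain gene Cd79a, none of the T cell gene Cd3e, under 5 of the myeloid gene Lyz2, and at least 1 each of Cd93 and Vpreb3. This rule found 158 cells in the Glutoborin library and 81 in the Vehicle library, 239 of 15941 kept barcodes and of 8447 B cells by the same gate without the Cd93 and Vpreb3 conditions. The other 4909 Glutoborin and 3299 Vehicle cells of that gate are called other B cells here.

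Both libraries came from spleens of wild-type (WT) mice that had been infected with 10000 iRBCs, an abbreviation the labels leave unexplained, into the peritoneum 5 days before collection. The Glutoborin library came from mice dosed with Glutoborin on days 2 and 4, and the Vehicle library from mice dosed with Vehicle on the same days. Leukocytes were sorted on CD45 before capture, and the number, age and sex of the mice in each library are not given in the sources used here. Since each group is a single library, differences could not be tested against variation among animals, and every interval below is a 95% interval that covers counting error alone, exact but for the differences between log2 ratios.

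Transitional B cells are immature B cells that leave the bone marrow, reach the spleen and there become follicular or marginal zone B cells. They are known for surface CD93, a lectin-like membrane protein lost on maturation, for high CD24 and IgM, and for a division into an earlier stage without CD23 and a later one with it. Vpreb3 encodes a relative of the surrogate light chain that is retained inside early B lineage cells. Cd93 lies on chr2:148436640-148443563 on the minus strand and Vpreb3 on chr10:75943057-75949657 on the plus strand of GRCm38, and both are protein-coding.

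Barcodes numbered 9646 in Glutoborin and 8204 in Vehicle, and their UMIs 56862506 and 48526451. Barcodes at or above the mitochondrial limit were 4.07% of the Glutoborin and 18.5% of the Vehicle library, and only 2 barcodes in each would otherwise have met the Cd93 and Vpreb3 rule. Cd93+ Vpreb3+ cells had medians of 4960 and 5727 UMIs in Glutoborin and Vehicle, against 4109 and 4768 in other B cells. Their summed profiles held 1096823 and 628885 UMIs. A barcode sequence was shared by the libraries in 21 kept cases, none of them a Cd93+ Vpreb3+ cell.

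Cd93 itself was at the edge of detection. In the Glutoborin library 144 of the cells had 1 Cd93 UMI, 11 had 2, 2 had 3 and 1 had 6. In the Vehicle library 66 had 1, 14 had 2 and 1 had 3. Just outside the rule lay 40 Glutoborin and 22 Vehicle B cells with Cd93 but no Vpreb3 UMI. Cells just inside it, with 1 Vpreb3 UMI, had 195 and 282 CPM (UMIs per 1000000 of the summed total) of Cd24a in Glutoborin and Vehicle, against 218 and 161 CPM in those just outside. These values describe the choice of cells and were not tested.

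Cells meeting the rule made up a slightly larger share of B cells in the Glutoborin library. They were 3.12% (2.66 to 3.63%) of Glutoborin and 2.40% (1.91 to 2.97%) of Vehicle gated B cells, a log2 ratio of 0.38 (-0.02 to 0.78), an interval that included 0. Among all kept barcodes they were 1.71% and 1.21% in Glutoborin and Vehicle, with a log2 ratio of 0.50 (0.10 to 0.90). The share moved with depth. Of B cells with 2000 to 4000 UMIs, 1.84% in Glutoborin and 1.38% in Vehicle met the rule, of those with 4000 to 8000 UMIs 3.66% and 2.27%, and of those with 8000 or more 6.32% and 4.69%. The Glutoborin share was above the Vehicle share in each of these depth ranges, but the intervals of the libraries overlapped in each. When every barcode was thinned to 2000 UMIs before the rule was applied, 52 of 4484 Glutoborin B cells (1.16%) and 18 of 2809 Vehicle B cells (0.641%) remained. The direction turned when at least 2 Cd93 UMIs were required. Then 14 Glutoborin cells (0.276%) and 15 Vehicle cells (0.444%) met the rule, a log2 ratio of -0.68 for which no interval was computed.

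T cells, which should lack both genes, gave the background of stray RNA. A Cd93 UMI was found in 0.821% of 2192 Glutoborin and 0.322% of 1553 Vehicle T cells, at median depths of 5918 and 6783 UMIs. In gated B cells the same share was 3.91% in Glutoborin and 3.05% in Vehicle. A Vpreb3 UMI was found in 4.06% and 4.76% of Glutoborin and Vehicle T cells, against 66.3% and 56.1% of gated B cells, so most splenic B cells here carried Vpreb3 transcripts. Both genes together occurred in 3 Glutoborin T cells (0.137%) and in no Vehicle T cell, for which the exact interval reached 0.237%. A stray Cd93 UMI in a Vpreb3+ B cell would meet the rule, and its part in the cells counted was not tested.

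**Figure D1:**
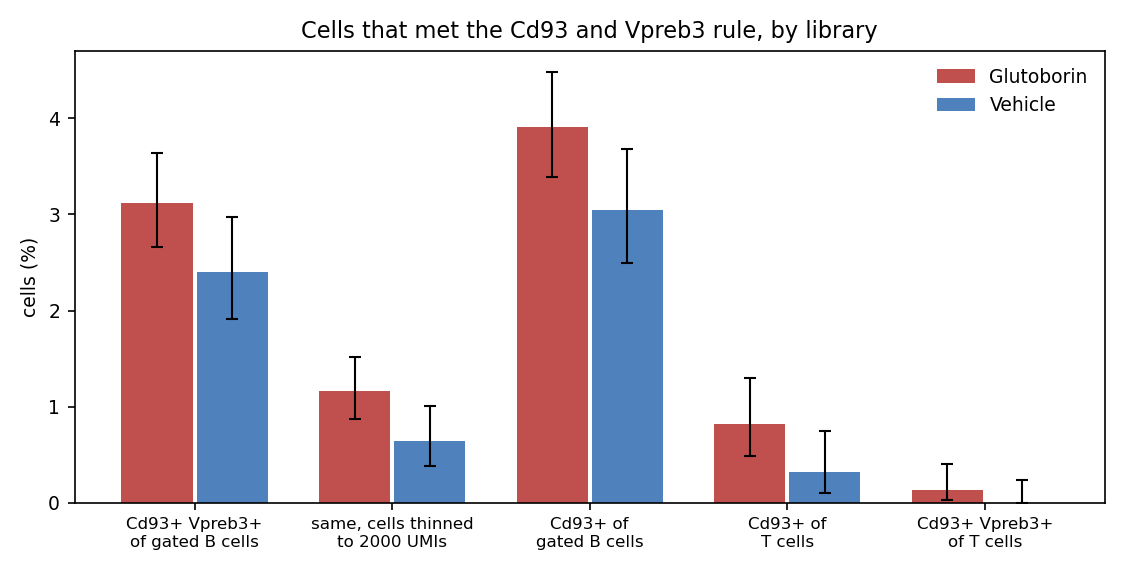
Share of cells (%) meeting the Cd93 and Vpreb3 rule with all cells and with cells thinned to 2000 UMIs, or holding Cd93, in gated B cells and in T cells, for Glutoborin (left of each pair) and Vehicle; bars are the shares of 1 library each and error bars exact 95% binomial intervals of counting error. Cd93+ Vpreb3+ cells were 3.12% of Glutoborin and 2.40% of Vehicle B cells, and Cd93+ cells were 0.821% and 0.322% of T cells.

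The remaining markers of the label, Cd24a and Spib, stood above other B cells, but by modest amounts. Cd24a, which encodes the CD24 surface glycoprotein, had 427 CPM in Cd93+ Vpreb3+ cells and 322 CPM in other B cells of the Glutoborin library, and 407 against 256 CPM in the Vehicle library. The log2 ratios of Cd93+ Vpreb3+ over other B cells were 0.41 (0.27 to 0.54) for Glutoborin and 0.67 (0.48 to 0.85) for Vehicle. Spib, an Ets family transcription factor of the B lineage, had 258 against 193 CPM in Glutoborin and 226 against 191 CPM in Vehicle, with log2 ratios of 0.42 (0.24 to 0.59) and 0.24 (-0.01 to 0.48). Against other B cells with Vpreb3 but no Cd93 UMI the excess was smaller. Those cells had 356 CPM of Cd24a in Glutoborin and 283 CPM in Vehicle, and 219 and 235 CPM of Spib. In Vehicle, Spib was thus not higher than in Vpreb3+ B cells without Cd93. The part of the Vpreb3 condition in these ratios was not tested. At an equal depth of 2000 UMIs a Cd24a UMI was present in 47.5% of Glutoborin and 43.2% of Vehicle Cd93+ Vpreb3+ cells, against 40.3% and 34.4% of other B cells. Without thinning the Cd24a shares were 70.9% and 76.5%, against 61.9% and 59.4%, and in thinned T cells they were 1.10% and 1.87%. Marginal-zone-type B cells, defined below, had shares of 46.7% and 38.6% thinned and 74.2% and 73.7% unthinned, and both thinned values lay inside the intervals of the Cd93+ Vpreb3+ cells. Neither gene was 1.5-fold higher in both libraries, so the cells are called by their rule rather than by a maturation stage. Smaller sets of cells differed in this. Cd24a passed 1.5-fold in both libraries among the 14 Glutoborin and 15 Vehicle cells with at least 2 Cd93 UMIs. Both genes did among the 52 and 18 cells that met the rule after thinning.

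Myb, Sox4, Cecr2 and Pafah1b3 stood above other B cells in summed CPM, while 10 of the 11 measured genes of the early B cell list did not pass 1.5-fold. Myb, a transcription factor of blood cell progenitors, had 34 UMIs in Glutoborin and 23 in Vehicle Cd93+ Vpreb3+ cells, which gave log2 ratios over other B cells of 1.86 (1.29 to 2.38) and 1.66 (0.97 to 2.28). Sox4, a transcription factor needed for early B cell development, had 29 and 23 UMIs and log2 ratios of 0.85 (0.25 to 1.40) and 1.76 (1.07 to 2.39). Cecr2, a chromatin remodelling protein, had 42.9 against 22.9 CPM in Glutoborin and 41.3 against 17.0 CPM in Vehicle. Pafah1b3, a catalytic subunit of an intracellular phospholipase, had 132 CPM in the Cd93+ Vpreb3+ cells of either library, against 86.1 CPM in Glutoborin and 79.5 CPM in Vehicle other B cells. Of the 26 genes in the list of other early B cell genes, 11 reached 50 CPM in the gated B cells of each library and Pafah1b3 alone was over 1.5-fold higher in both libraries, as were 0.356% of all genes so measured, while Myb, Sox4 and Cecr2 lay under that minimum. The median log2 ratio of those 11 was 0.09 in Glutoborin and 0.21 in Vehicle, beside 0.05 and 0.03 for all genes tested.

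Of 12 genes of bone marrow precursors, 7 in Glutoborin and 6 in Vehicle had no UMI. Rag1 and Rag2, which cut antigen receptor genes for rearrangement, had no UMI in any Cd93+ Vpreb3+ cell. The same held for Igll1, part of the surrogate light chain, for Dntt, which adds bases at receptor junctions, and for the progenitor genes Cd34 and Erg. Vpreb1, the other surrogate light chain part, had no UMI in Glutoborin and 1 in Vehicle cells. The list as a whole summed to 1659 CPM in Glutoborin and 1608 CPM in Vehicle Cd93+ Vpreb3+ cells, against 1642 and 1576 CPM in other B cells. Most of that was Ebf1, a transcription factor of the whole B lineage, with 1482 and 1480 CPM. Il7r, the receptor of precursor and T cells, had 6 and 9 UMIs, and Kit, a progenitor receptor, 1 in each library. A count of 0 allows up to 3 UMIs, or 2.74 CPM in Glutoborin and 4.77 CPM in Vehicle cells.

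Immunoglobulin genes of the naive B cell were present, and the lambda light chain was more frequent. Ighm, the IgM heavy chain, had 7450 CPM in Cd93+ Vpreb3+ cells and 5545 CPM in other B cells of the Glutoborin library, and 7413 against 4574 CPM in the Vehicle library, although 1 cell gave 41.1% of the Glutoborin and 46.2% of the Vehicle Ighm UMIs. Ighd, the IgD heavy chain that appears as B cells mature, was close to other B cells, at 855 against 934 CPM in Glutoborin and 809 against 915 CPM in Vehicle. Cells with more lambda than kappa constant transcripts, of those with at least 10 such UMIs, were 16.5% (11.0 to 23.2%) of Glutoborin and 22.2% (13.7 to 32.8%) of Vehicle Cd93+ Vpreb3+ cells, 26 and 18 cells. In other B cells they were 8.48% (7.72 to 9.30%) and 8.85% (7.90 to 9.88%). The lambda constant genes Iglc1, Iglc2 and Iglc3 are near-identical copies among which counting may divide reads, so their sum was used. The lambda share was above that of other B cells in each of the 3 depth ranges named above in both libraries: 21.4%, 15.4% and 13.2% from low to high depth in Glutoborin cells, where other B cells had 8.07%, 8.48% and 10.7%. In Vehicle cells it was 16.7%, 20.5% and 28%, where other B cells had 8.89%, 8.13% and 11.9%. These shares rest on few cells: 9 of 42, 12 of 78 and 5 of 38 in Glutoborin and 2 of 12, 9 of 44 and 7 of 25 in Vehicle. Differences within a single range were not tested. The lambda comparison was chosen after the values were seen.

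Of the mature splenic subset genes, 2 of 10 measured in the marginal zone list, Cr2 and Notch2, and 1 of 19 in the follicular list, again Cr2, were over 1.5-fold lower in both libraries (0.119% of all genes measured). None was over 1.5-fold higher in both. The marginal zone list had medians of -0.18 in Glutoborin and -0.43 in Vehicle, and the follicular list of -0.08 and -0.10. Summed over all its genes, the marginal zone list was higher, at 2894 against 2537 CPM in Glutoborin and 3048 against 2897 CPM in Vehicle. The follicular sum was lower, at 5834 against 6209 CPM and 5702 against 6104 CPM. After thinning, Cd1d1 was found in 7.59% of Glutoborin Cd93+ Vpreb3+ cells and 6.60% of other B cells. In Vehicle the shares were 11.1% and 6.72%, and both intervals included the value of other B cells. Cr2, the complement receptor CD21 that rises with maturation and is highest in marginal zone cells, had 199.7 against 328 CPM in Glutoborin and 179.7 against 296 CPM in Vehicle, log2 ratios of -0.71 (-0.91 to -0.52) and -0.72 (-1.0 to -0.45). Notch2, the receptor that drives the marginal zone fate, had 50.1 against 83.4 CPM in Glutoborin and 42.9 against 74.0 CPM in Vehicle. Dtx1, a Notch target, had log2 ratios of -0.45 (-0.78 to -0.14) and -0.63 (-1.13 to -0.18). The chemokine receptor gene Ccr6, from 25 Glutoborin and 8 Vehicle UMIs, had log2 ratios of -1.24 (-1.88 to -0.68) and -1.68 (-2.89 to -0.69). Fcer2a, which encodes CD23, was nearly level in Glutoborin at 243 against 256 CPM, and stood at 153 against 191 CPM in Vehicle. Follicular-type B cells, defined by no Cd93 and at least 2 Fcer2a UMIs without Cd1d1 or Myof, had 286 and 306 CPM of Cr2 in Glutoborin and Vehicle. Marginal-zone-type B cells, defined in part by Cr2, had 695 and 554 CPM.

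The class II antigen presentation genes had log2 ratios below 0 in the median, and none passed 1.5-fold. H2-Aa had 3656 against 4982 CPM in Glutoborin and 3449 against 4285 CPM in Vehicle, log2 ratios of -0.45 (-0.49 to -0.40) and -0.31 (-0.38 to -0.25). H2-Ab1 had log2 ratios of -0.35 and -0.31, and H2-Eb1 of -0.35 and -0.28. The 11 measured genes of this list had a median of -0.31 in Glutoborin and -0.23 in Vehicle, which was -0.13 and -0.18 without the barcodes, described below, that stood apart. Cd79b, the partner chain of Cd79a, was on the other side, at 2046 against 1833 CPM in Glutoborin and 1865 against 1638 CPM in Vehicle. Siglecg, an inhibitory receptor of B cells, had log2 ratios of 0.26 (0.14 to 0.37) and 0.36 (0.19 to 0.51). Tnfrsf13c, the receptor for the survival factor BAFF, was level, with 322 against 327 CPM in Glutoborin and 336 against 295 CPM in Vehicle. Plac8, a marginal zone list gene, had log2 ratios of 0.69 (0.61 to 0.76) and 0.31 (0.22 to 0.40). Rps27, a ribosomal protein gene, had log2 ratios of -0.40 (-0.44 to -0.36) and -0.31 (-0.36 to -0.26).

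**Figure D2:**
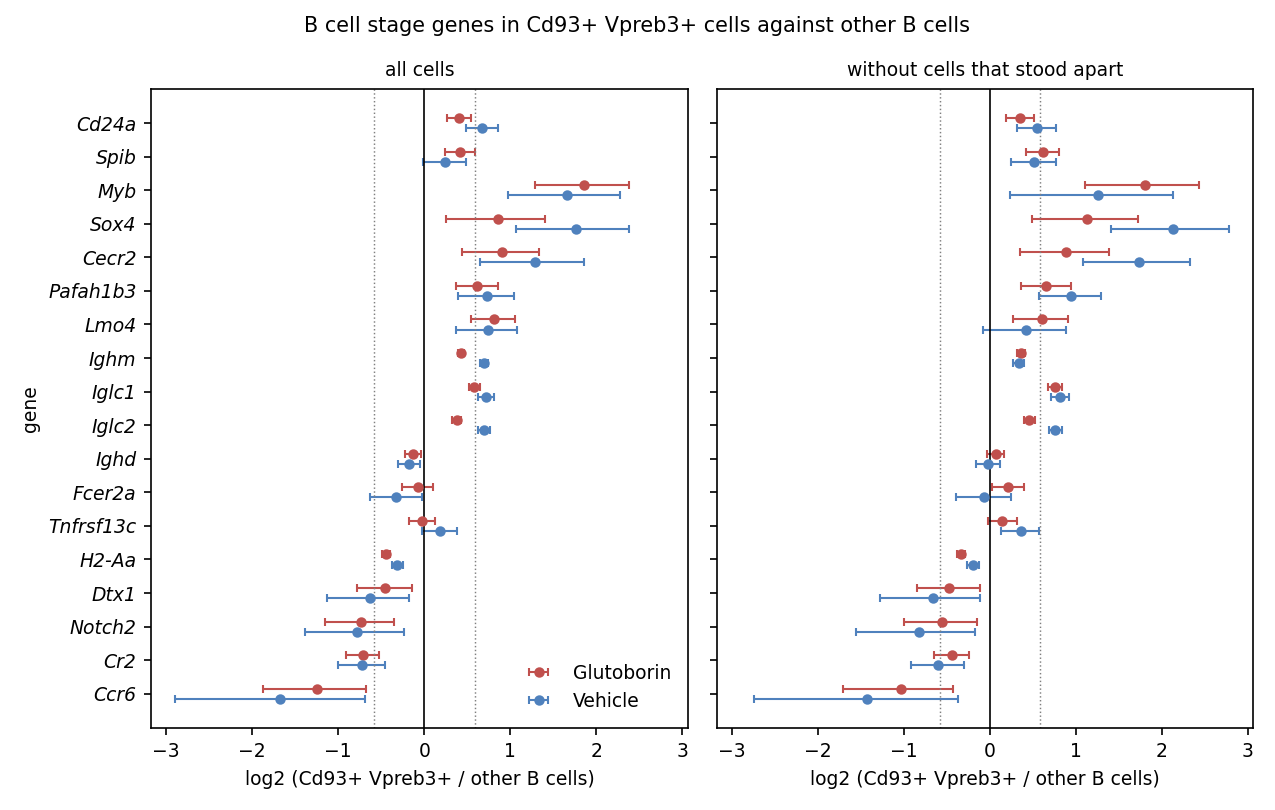
Log2 ratio of summed CPM, Cd93+ Vpreb3+ over other B cells, for genes of B cell stages in Glutoborin and Vehicle; points are 1 library each, bars exact 95% intervals of counting error, dotted lines 1.5-fold, the left panel all cells and the right panel without the 15 Glutoborin and 11 Vehicle Cd93+ Vpreb3+ cells that stood apart. Cd24a, Spib, Myb and Sox4 lie right of no difference, and Cr2, Notch2 and Ccr6 lie left of it, in both libraries and both panels.

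Across all genes, few passed 1.5-fold in the same direction in both libraries. Of 2526 genes with at least 50 CPM in gated B cells of each library, 9 were higher (0.356%): H2afz, Lmo4, Hmgn2, Cenpa, Jchain, Pafah1b3, Hmgb2, H2afx and Xbp1. Another 3 were lower (0.119%): Cr2, Notch2 and Socs1, the last a feedback inhibitor of cytokine signalling. Among the 9, Cenpa, H2afx, H2afz, Hmgn2 and Hmgb2 encode chromatin proteins, of which Cenpa, H2afz and Hmgb2 are known to be abundant in dividing cells. Jchain and Xbp1 belong to antibody secretion. Lmo4, a transcriptional cofactor, had 128 against 72.9 CPM in Glutoborin and 114 against 68.7 CPM in Vehicle.

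The highest ratios came from a few deep cells in division. Barcodes with 5 or more UMIs of 19 mitosis genes were 11 of the Glutoborin Cd93+ Vpreb3+ cells (6.96%, 3.53 to 12.1%) and 7 of the Vehicle ones (8.64%, 3.55 to 17.0%), against 0.774% and 1.03% of other B cells. Their median depths were 22360 UMIs in Glutoborin and 16583 in Vehicle. In the range of 8000 UMIs or more, where nearly all of them lay, cycling barcodes were 26.3% of Glutoborin and 28% of Vehicle Cd93+ Vpreb3+ cells, against 5.86% and 5.51% of other B cells. Mki67, a nuclear protein of dividing cells, had 153 UMIs in Glutoborin and 46 in Vehicle Cd93+ Vpreb3+ cells, log2 ratios of 3.48 (3.19 to 3.76) and 2.04 (1.57 to 2.49). Ube2c, which tags cyclins for destruction, had log2 ratios of 3.45 and 3.54, with 88.6% of its Vehicle UMIs in 1 cell, and Top2a, the topoisomerase of mitotic chromosomes, of 2.58 and 1.72. Without the barcodes that stood apart, which were defined in part by Mki67 and Top2a, Mki67 had no UMI in either library. Hmgb2, which was not in that definition, had 664 against 215 CPM in Glutoborin and 576 against 205 CPM in Vehicle, and log2 ratios of 0.11 and 0.12 once those barcodes were left out.

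Other barcodes also stood apart. In each library 1 Cd93+ Vpreb3+ cell held nearly all Jchain, the joining chain of secreted IgM and IgA: 983 of 991 UMIs in Glutoborin and 1179 of 1200 in Vehicle. Myeloid markers reached 10 UMIs in 6 cells of each library, T cell markers reached 5 in no Glutoborin and 2 Vehicle cells, and NK markers in 2 and 1. These cuts are not scaled to depth. The cells that reached the myeloid cut were deep, with medians of 20231 UMIs in Glutoborin and 16363 in Vehicle. The defining macrophage gene C1qa had no UMI in Glutoborin and 1 in Vehicle cells, and the monocyte gene Csf1r none and 2. The 15 myeloid markers summed to 426 CPM in Glutoborin and 592 CPM in Vehicle Cd93+ Vpreb3+ cells, against 459 and 563 CPM in other B cells, with 5 and 2 of them at 0. The 12 T cell markers summed to 83.0 and 129 CPM against 119 and 159 CPM, and the 9 NK markers to 98.5 and 558 CPM against 414 and 396 CPM, with 93.4% of the Vehicle Ccl5 UMIs in 1 cell. The part of such RNA in the comparisons was not tested beyond leaving these barcodes out. Doublet calling by Scrublet marked 409 Glutoborin and 247 Vehicle barcodes, of which 1 in each library was a Cd93+ Vpreb3+ cell.

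In all, 15 Glutoborin cells (9.49%) and 11 Vehicle cells (13.6%) stood apart in at least 1 of these ways, some in more than 1. They held 25.9% and 29.8% of the UMIs. Without them and their counterparts among other B cells, 143 and 70 cells remained. Of 2516 genes, 7 were then 1.5-fold higher in both libraries (0.278%): Rgs2, Pafah1b3, Fam53b, Sla, Ly6c2, Iglc1 and Cmtr1. Another 3 were lower (0.119%): Apoe, Ftsj3 and Tuba1b. Pafah1b3 was thus the gene called higher either way. Spib had log2 ratios of 0.62 in Glutoborin and 0.51 in Vehicle, Cd24a of 0.35 and 0.55, Myb of 1.80 and 1.26, and Sox4 of 1.14 and 2.13. Cr2 had -0.45 and -0.60 and Notch2 -0.56 and -0.82, which ended both calls in Glutoborin. Ighm had 0.36 and 0.34, and the lambda share was 15.4% and 20%, against 8.46% and 8.76% in other B cells.

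**Figure D3:**
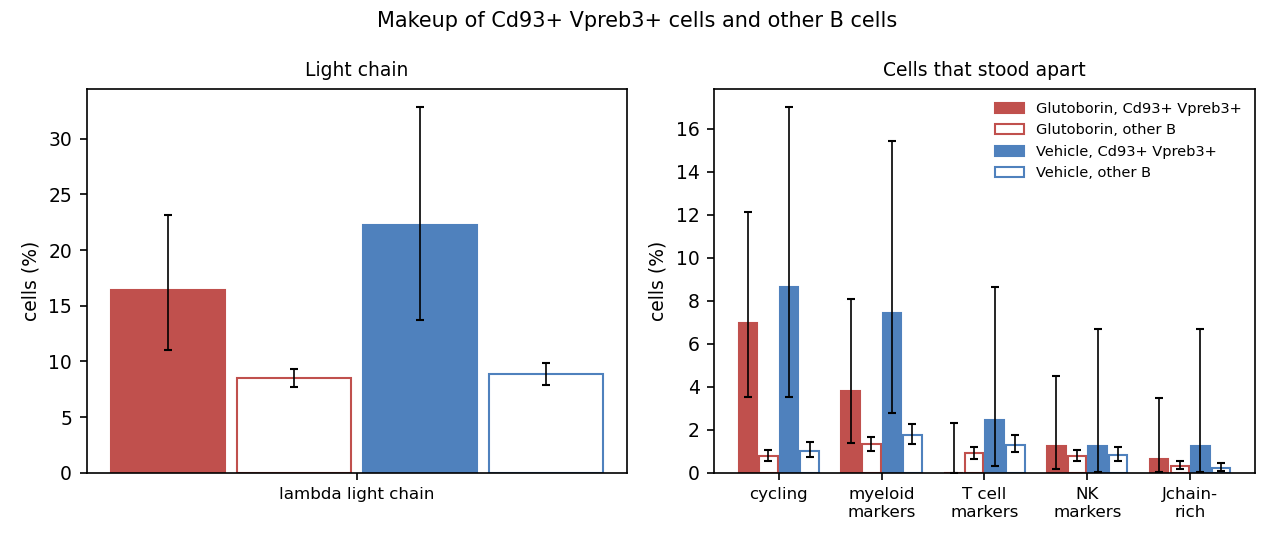
Share of cells (%) with more lambda than kappa light chain UMIs (left) and share of cells that stood apart by cycling, myeloid, T cell or NK markers or by Jchain (right), for Cd93+ Vpreb3+ cells (filled) and other B cells (open) of Glutoborin and Vehicle; error bars are exact 95% binomial intervals. Lambda cells were 16.5% and 22.2% of Glutoborin and Vehicle Cd93+ Vpreb3+ cells, and cycling cells 6.96% and 8.64%.

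CD23 divides transitional B cells into an earlier and a later stage, so the cells were split by Fcer2a after thinning to 2000 UMIs. Cells without an Fcer2a UMI were 93 of 158 in Glutoborin (58.9%, 50.8 to 66.6%) and 59 of 81 in Vehicle (72.8%, 61.8 to 82.1%). In other B cells the shares were 61.6% and 69.5%, both inside the intervals of the Cd93+ Vpreb3+ cells. Unthinned, 99 of 158 Glutoborin and 47 of 81 Vehicle cells held an Fcer2a UMI. The cells without one after thinning still held 75 and 49 Fcer2a UMIs in all. The split thus goes by detection at 2000 UMIs, and without Fcer2a below means not detected at that depth. Of the barcodes that stood apart, 14 of 15 in Glutoborin and 10 of 11 in Vehicle were without Fcer2a, and the values that follow leave out all barcodes that stood apart. Among the rest, cells without Fcer2a had 449.8 CPM of Cd24a and cells with it 351 CPM in Glutoborin, and 423 against 264 CPM in Vehicle, log2 ratios of 0.36 (0.03 to 0.69) and 0.68 (0.14 to 1.26). H2-Aa had 3748 against 4527 CPM in Glutoborin and 3652 against 4467 CPM in Vehicle. Ighm was slightly higher, with log2 ratios of 0.14 (0.04 to 0.24) and 0.24 (0.09 to 0.39), and Ighd lower, with -0.19 (-0.39 to 0.01) and -0.40 (-0.69 to -0.10). For Spib and Cr2 the intervals included 0 in both libraries.

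Between the libraries, the genes induced by type I interferon, an antiviral cytokine family, were lower in Cd93+ Vpreb3+ cells of the Glutoborin library. Of 2397 genes with at least 100 UMIs in these cells, 103 were 1.5-fold lower (4.3%) and 59 higher (2.46%) in Glutoborin. Of the 59 symbols in the type I list, 33 were measured, of which 25 were lower and Ifi27 was higher. Their median log2 ratio of Glutoborin over Vehicle was -1.23, beside 0.02 for all genes measured and -1.10 for the same list in other B cells. Summed over every list gene in the files, whatever its level, the list had 5553 CPM in Glutoborin and 11560.1 CPM in Vehicle cells. Leaving out the barcodes that stood apart, 88 of 1718 genes were lower (5.12%) and 33 higher (1.92%), and of the type I list 19 of 23 were lower, none was higher and the median was -1.25. The list was lower in other B cells as well, so the difference is not particular to Cd93+ Vpreb3+ cells.

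Ifit3, of the IFIT family of antiviral proteins, had 27.4 CPM from 30 UMIs in Glutoborin and 124 CPM from 78 UMIs in Vehicle Cd93+ Vpreb3+ cells, a log2 ratio of -2.18 (-2.84 to -1.56). In other B cells it had 23.8 and 141 CPM. Isg15, a ubiquitin-like protein, had 36.5 CPM in Glutoborin and 127 CPM in Vehicle, a log2 ratio of -1.80 (-2.39 to -1.24), and at 2000 UMIs was found in 3.8% and 18.5% of the cells. Without thinning the Isg15 shares were 14.6% and 43.2%. Bst2, tetherin, which holds budding virus at the cell surface, had 70.2 and 218 CPM in Glutoborin and Vehicle, a log2 ratio of -1.63 (-2.06 to -1.22). Ifitm3, which blocks viral entry, had 45.6 and 153 CPM, and Slfn5, of the schlafen family, 39.2 and 130 CPM. Xaf1, a partner of apoptosis inhibitors, had 41.9 and 146 CPM, and the receptor-transporting protein gene Rtp4 41.0 and 138 CPM. Irf7, the transcription factor that amplifies interferon production, had 71.1 and 205 CPM in Glutoborin and Vehicle, a log2 ratio of -1.53 (-1.95 to -1.11). Ifi27l2a, the most abundant of these genes, had 1119 and 2624 CPM, with a ratio of -1.23 (-1.34 to -1.12).

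Ifi213, from a cluster of interferon-inducible genes and outside the list, had 40.1 CPM in Glutoborin and 172 CPM in Vehicle, with a log2 ratio of -2.10 (-2.64 to -1.58), against -1.53 in other B cells. Ly6c2, a surface protein induced by interferon, had 193 and 660 CPM, although 1 cell gave 25.5% of the Glutoborin and 31.8% of the Vehicle UMIs, and its log2 ratio without the barcodes that stood apart was -1.46 (-1.78 to -1.15). Ifi27 went the other way, at 93 CPM in Glutoborin and 35.0 CPM in Vehicle from 102 and 22 UMIs, a log2 ratio of 1.41 (0.74 to 2.15), against 0.46 in other B cells. Ifit3, Ly6c2 and Ifi213 have near-identical relatives and may share reads with them.

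The interferon receptor genes did not show the same pattern. Ifnar1 had 55.6 CPM in Glutoborin and 46.1 CPM in Vehicle Cd93+ Vpreb3+ cells, Ifnar2 35.6 and 27.0 CPM, and Ifngr1 52.9 and 65.2 CPM, and at these counts of 17 to 61 UMIs every interval of the log2 ratio included 0. Jak1, the kinase bound to these receptors, had 201 and 188 CPM. Stat2, a transcription factor of the type I signal, had 37.4 and 93.8 CPM, a log2 ratio of -1.33 (-1.94 to -0.73).

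Promoter sequence is shown for 3 of the genes whose promoters carry the letters of an interferon-stimulated response element, a site through which type I interferon acts on transcription. The motif searched was GAAA, any 2 bases and again GAAA, on both strands, within 250 bases before and 50 after each RefSeq start on GRCm38.p6, and overlapping matches were counted. It occurs in 1131 of 32851 promoter windows (3.44%) and in 1079 of 27025 genes (3.99%). Of the 9 type I list genes among the genes named for the lowest bound, 8 had an entry and 5 held the motif: Ifit3, Isg15, Ifitm3, Bst2 and Slfn5. Ly6c2, Xaf1 and Ifi47 did not hold these letters in this window, and Rtp4 had no entry. The matched letters are in capitals, and each sequence reads 5′ to 3′ on the strand of its gene.
Ifit3, chr19:34583353-34583436, plus strand: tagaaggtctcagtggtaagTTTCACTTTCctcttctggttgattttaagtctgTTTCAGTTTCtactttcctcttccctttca
Isg15, chr4:156200855-156200916, minus strand: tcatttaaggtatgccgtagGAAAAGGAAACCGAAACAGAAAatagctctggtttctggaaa
Bst2, chr8:71537567-71537622, minus strand: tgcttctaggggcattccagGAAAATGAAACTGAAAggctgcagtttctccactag
In Ifit3 both matches lie on the strand opposite the gene and begin 156 and 122 bases before the start. In Isg15 there are 3 overlapping matches, from 78 bases before it, and in Bst2 a pair, from 130 bases before it. A match describes these letters and is not a measured binding site.

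**Figure D4:**
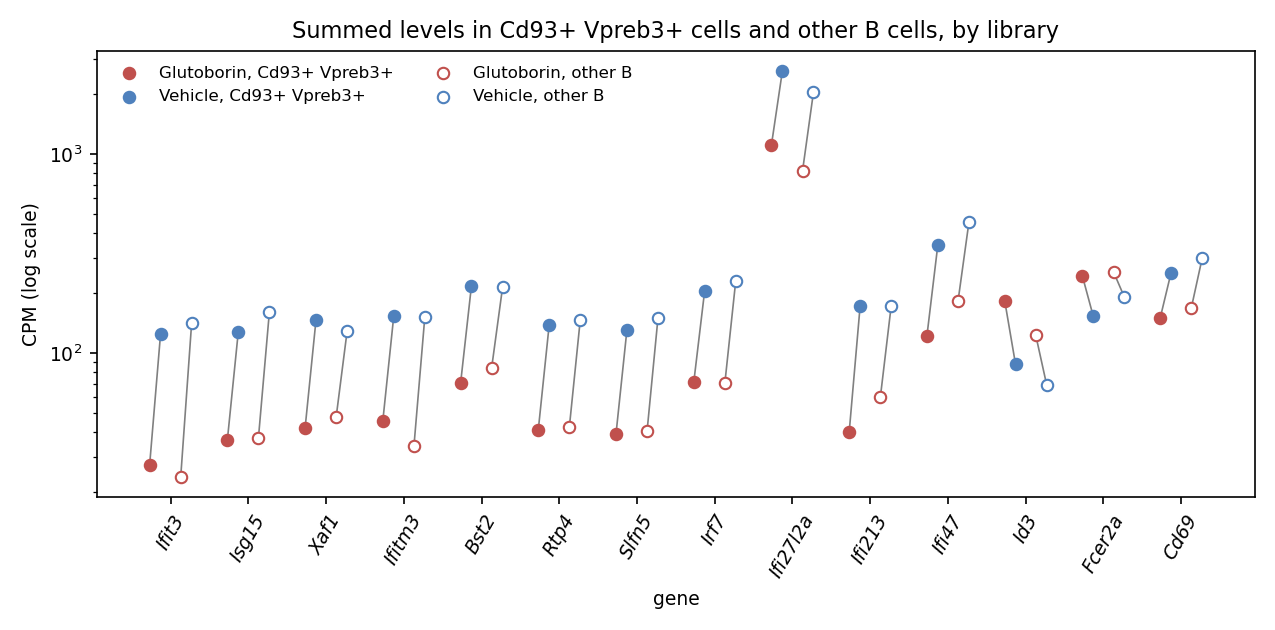
Summed CPM (log axis) of interferon-induced genes and of Id3, Fcer2a and Cd69 in Cd93+ Vpreb3+ cells (filled) and other B cells (open), with Glutoborin left of Vehicle in each joined pair; each point is 1 library. The interferon-induced genes shown lie lower in Glutoborin than in Vehicle in both kinds of cell, as Ifit3 does at 27.4 and 124 CPM, while Id3 and Fcer2a lie higher.

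The difference lay across the cells rather than in a few. The type I list took a median of 0.511% of the UMIs of a Glutoborin Cd93+ Vpreb3+ cell, with a range of 0.118 to 1.78%, and 1.10% of those of a Vehicle cell, with a range of 0.278 to 3.86%. The ranges overlapped, and the upper quartile in Glutoborin, 0.725%, lay below the lower quartile in Vehicle, 0.850%. Other B cells had medians of 0.462% in Glutoborin and 1.03% in Vehicle. Cells are not replicates, and these values describe 1 library each.

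Genes induced by interferon gamma, the cytokine of activated T and NK cells, were lower by about the same amount as in other B cells. Of 16 measured, 9 were lower and none higher, with a median log2 ratio of -0.59 in both Cd93+ Vpreb3+ and other B cells. Gbp7, a guanylate-binding protein, had 61.1 CPM in Glutoborin and 169 CPM in Vehicle, a log2 ratio of -1.46 (-1.93 to -1.01). Igtp, an immunity-related GTPase, had 53.8 and 143 CPM, and the transcription factor gene Irf1 143 and 216 CPM. Gbp2 differed from other B cells in size, at -0.64 (-1.11 to -0.17) in Cd93+ Vpreb3+ cells and -1.58 in other B cells, a difference of 0.94 (0.49 to 1.40). Socs1, which had too few UMIs to enter the count, had 32 in Glutoborin and 67 in Vehicle cells, a log2 ratio of -1.87 (-2.52 to -1.24). The list took a median of 0.345% of UMIs per cell in Glutoborin and 0.534% in Vehicle.

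**Figure D5:**
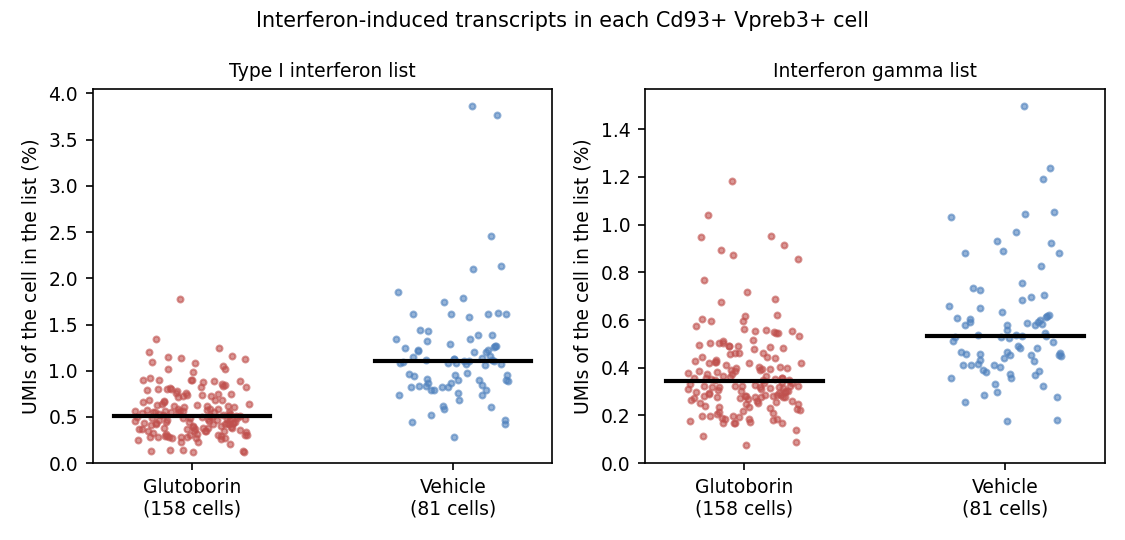
Share of the UMIs of each Cd93+ Vpreb3+ cell (%) that fell in the type I interferon list (left) and the interferon gamma list (right), for 158 Glutoborin and 81 Vehicle cells; points are cells, spread sideways for display, and the bar is the median of 1 library. The medians were 0.511% and 1.10% for the type I list and 0.345% and 0.534% for the gamma list.

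Class I and class II presentation genes differed little between the libraries. Of 14 measured class I genes, Tapbp alone was 1.5-fold lower in Glutoborin, and the median was -0.19. B2m, the light chain of class I, had 1947 CPM in Glutoborin and 2178 CPM in Vehicle. None of 11 class II genes passed 1.5-fold in either direction, and their median was 0.08. H2-Aa had 3656 CPM in Glutoborin and 3449 CPM in Vehicle, and Cd74, the invariant chain, 11532 and 11028 CPM.

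Among the genes higher in Glutoborin, Id3 and Fcer2a did not rest on a few cells. Id3, whose protein binds E proteins and keeps them off DNA, had 183 CPM from 201 UMIs in Glutoborin and 87.5 CPM from 55 UMIs in Vehicle, a log2 ratio of 1.07 (0.63 to 1.52), or 1.17 (0.69 to 1.68) without the barcodes that stood apart. In other B cells it had 123 and 69.1 CPM, a log2 ratio of 0.83. Fcer2a had 243 CPM in Glutoborin and 153 CPM in Vehicle, a log2 ratio of 0.67 (0.33 to 1.03), against 0.42 in other B cells. Bcl10, an adaptor between the B cell receptor and NF-kappaB, had 116 and 65.2 CPM, a log2 ratio of 0.83 (0.31 to 1.37), against 0.19 in other B cells. Smim20, a small protein of the mitochondrial inner membrane, had 88.4 and 39.8 CPM. Tcf3, which encodes the E proteins that Id3 inhibits, had 122 and 76.3 CPM, a log2 ratio of 0.68 (0.19 to 1.19) that was 0.48 (-0.07 to 1.05), under 1.5-fold, without the barcodes that stood apart.

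Apoe, Bcl2a1b, Il4i1 and Igkc leaned more on single cells. Apoe, a lipid carrier made mainly by macrophages in the spleen, had 129 CPM in Glutoborin and 44.5 CPM in Vehicle, but 1 cell gave 24.8% of its Glutoborin UMIs. Its log2 ratio was 1.53 (0.94 to 2.17), and 1.19 (0.46 to 2.00) without the barcodes that stood apart, and the part of myeloid RNA in it was not tested. Bcl2a1b, a survival protein with near-identical copies, had 81.1 and 27.0 CPM. Its log2 ratio was 1.59 (0.83 to 2.43) with and 0.83 (-0.18 to 1.95) without those barcodes. Il4i1, an amino acid oxidase, had a log2 ratio of 1.06 (0.51 to 1.64), with 24.4% of its Glutoborin UMIs in 1 cell. The kappa constant gene Igkc had 17747 and 10609 CPM, a log2 ratio of 0.74, but 1 antibody-secreting cell gave 47.1% of the Glutoborin UMIs, and without the barcodes that stood apart the direction turned, to -0.12 (-0.17 to -0.07). Rpl10-ps3, a ribosomal protein gene copy annotated as protein-coding, was not tied to 1 cell, at 154 and 85.9 CPM in Glutoborin and Vehicle. Its log2 ratio was 0.84 (0.39 to 1.31), or 0.91 (0.37 to 1.49) without the barcodes that stood apart, and it may share reads with its relatives.

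Of the activation genes, Cd69 was lower in Glutoborin with and without the barcodes that stood apart. This early activation receptor had 149.5 CPM in Glutoborin and 253 CPM in Vehicle Cd93+ Vpreb3+ cells, a log2 ratio of -0.76 (-1.08 to -0.43), against -0.83 in other B cells. Of 17 measured activation and immediate early genes, Cd69, Fosb, Jun and Egr1 were lower and none was higher, with a median of -0.22 in both kinds of cell. For Egr1, Fosb and Jun, 1 Vehicle cell gave 61.4%, 45.1% and 44.2% of the UMIs. Without the barcodes that stood apart their log2 ratios were -0.46, 0.44 and -0.25, while Cd69 had -0.78 (-1.15 to -0.41). Of 16 genes of the list measured then, Cd69 and Klf6 were lower, Ier2 was higher at 0.77 (0.20 to 1.37), and the median was -0.10. Cxcr4, the receptor for the chemokine Cxcl12, had 68.4 and 113 CPM, with a log2 ratio of -0.72 (-1.21 to -0.23), and was the sole gene called among 10 measured migration receptors. S1pr4 was called higher as well once the barcodes that stood apart were left out, at 0.64 (0.01 to 1.30).

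Most other B cell genes did not pass 1.5-fold between the libraries. In the B cell receptor signalling list Bcl10 alone of 24 passed 1.5-fold, and the median was 0.01. In the follicular list Fcer2a alone of 19 did, with a median of 0.08. In the transcription factor list Id3, Tcf3 and Spi1 of 22 were higher, none was lower and the median was 0.03. Without the barcodes that stood apart Id3 alone of 21 was called, and Spi1 had 0.53 (0.02 to 1.06). Cd24a had 427 CPM in Glutoborin and 407 CPM in Vehicle, a log2 ratio of 0.07 (-0.15 to 0.29), and Spib 258 and 226 CPM, a ratio of 0.19 (-0.10 to 0.49). Ighd had 855 and 809 CPM, and Tnfrsf13c 322 and 336 CPM. None of 5 measured Toll-like receptor genes passed 1.5-fold. In the survival list Relb and Bcl2a1b of 11 were higher, and neither was called without the barcodes that stood apart.

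Of 7 measured heat shock genes, Hspa5, a chaperone of the secretory pathway, was lower, at 295 CPM in Glutoborin and 542 CPM in Vehicle, and 1 Vehicle cell gave 24.0% of its UMIs. The median of the list was -0.18. Leaving out the barcodes that stood apart, 3 of 7 were lower and the median was -0.39. Hspa5 then had -0.69 (-0.99 to -0.39), the cytosolic chaperone gene Hspa8 -0.60 (-0.78 to -0.43) and its partner Dnaja1 -0.67 (-1.01 to -0.32).

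Myc, a growth regulator, had a Glutoborin over Vehicle ratio unlike that of other B cells, from few molecules. It had 58.4 CPM from 64 UMIs in Glutoborin and 49.3 CPM from 31 UMIs in Vehicle Cd93+ Vpreb3+ cells, a log2 ratio of 0.24 (-0.40 to 0.91). In other B cells it had 67.7 and 129 CPM, a log2 ratio of -0.93. The difference of the log2 ratios was 1.18 (0.55 to 1.80), and it was noticed after the values were seen. Tlr7, with 29 and 20 UMIs, had 26.4 and 31.8 CPM, against 20.2 and 44.2 CPM in other B cells.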

How the data were processed

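Splenic CD45+ cells were profiled with the 10x Genomics 3' v3.1 kit in 2 libraries, 1 per group. The authors deposited raw UMI counts per gene and barcode, made with Cell Ranger 6.1.2, per the file headers, or 6.0.1 with mm10, per the submitters' processing notes, which also name Seurat 4.3.0. Probable doublets marked by Scrublet (scanpy 1.11.5) were kept in the main values and left out as an alternative.

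Counts were summed over the cells of a kind in each library and expressed as CPM. Ratios of sums carry exact conditional Poisson intervals and shares carry exact Clopper-Pearson intervals, at 95%. A difference counted as called past 1.5-fold. Between libraries, genes needed 100 UMIs in Cd93+ Vpreb3+ cells. Between kinds of cell, genes needed 50 CPM in gated B cells of each library and the same direction in both, and the genes that the rule reads were left out. T cells had at least 2 Cd3e UMIs and at most 1 Cd79a UMI. The ratio intervals were tested on simulated independent Poisson counts, the model they assume. That test could not cover UMIs clustered in single cells. With 1 library per group no p-value was computed.

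Genes were named by the interval bound nearest to no difference, 12 on each side of each comparison, together with abundant members of 30 gene lists and every marker of the label. Bcl10, Myc, Tlr7, Lmo4, Ccr6 and others discussed for a list or cell kind were chosen after their values were seen. The cells, the lists and the tests were chosen with earlier results of these data known. The depth ranges, the lambda comparison and the barcodes that stood apart (at least 5 UMIs of the mitosis, T cell or NK genes, 10 of myeloid genes or 20 of Jchain) were also chosen after seeing values. Gene positions come from GENCODE on GRCm38, matched for 32158 of 32285 gene IDs (99.6%), and promoter sequences from RefSeq on GRCm38.p6. Calculations used Python 3.11.15, and edgeR 4.0.16 gave the TMM factors of an alternative scaling. Some list genes are not reported here.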

Additional observations from a re-analysis of the deposited data

Results flagged for a closer look

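Among the genes named as highest or lowest in Glutoborin, 5 had log2 ratios of Glutoborin over Vehicle on one side of 0 in Cd93+ Vpreb3+ cells and on the other in other B cells, with neither interval including 0. Other genes outside that set did so too, as Jchain did with -1.08 and 0.26. The differences were not tested, since each group has 1 library. Ccl5, a chemokine of T and NK cells, had -2.39 in Cd93+ Vpreb3+ cells and 0.55 in other B cells, with 93.4% of the Vehicle UMIs in 1 cell. Iglc3, a lambda light chain constant gene, had -3.08 in Cd93+ Vpreb3+ cells and 0.12 in other B cells, with 88.3% of the Vehicle UMIs in 1 cell. The histone gene Hist1h1b had 2.90 in Cd93+ Vpreb3+ cells and -0.54 in other B cells, from 130 UMIs in Glutoborin and 10 in Vehicle. Mki67 had 0.93 and -0.50, and Pclaf, a clamp-associated replication factor, 0.99 and -0.58. Hist1h1b, Mki67 and Pclaf are genes of dividing cells. Cycling barcodes were 11 of the Glutoborin (6.96%) and 7 of the Vehicle (8.64%) Cd93+ Vpreb3+ cells, so their share was not higher in Glutoborin. For Hist1h1b the richest Glutoborin cell held 45 of the 130 UMIs and the next 42, and 1 Vehicle cell held 8 of the 10. For Mki67, 1 cell held 39.9% of the Glutoborin and 1 cell 45.7% of the Vehicle UMIs.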

How the results depend on the processing

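No paired analysis was possible because each group has 1 library. Requiring at least 2 Cd93 UMIs gave shares of 0.276% in Glutoborin and 0.444% in Vehicle, a log2 ratio of -0.68. Between libraries 290 genes were then measured, 5 of them type I interferon genes, beside 2397 and 33 in the main setting. Of the 290 genes, 15 were higher and 14 lower in Glutoborin. The lower ones held 3 of the 5 type I genes, whose median was -1.05. The cut at 2 Cd93 UMIs also gave 55 genes higher, Cd24a and Ighm among them, and 109 lower than in other B cells. With no Vpreb3 condition the shares were 3.91% and 3.05%, and 183 of 2939 measured genes were lower in Glutoborin. Thinning before the rule gave 1.16% and 0.641%, a log2 ratio of 0.86. Of 170 genes then measured between libraries, 6 were higher and 2 lower in Glutoborin. The lower ones held 1 of the 2 measured type I genes. Against other B cells 64 genes were higher, Cd24a and Spib among them, and 101 lower. A 5% mitochondrial limit gave 16 of 21 measured type I genes lower, and 14 genes higher and 13 lower than in other B cells. Without any Lyz2 UMI, 39 of 1672 measured genes were higher in Glutoborin, 15 of 19 type I genes lower, and 6 genes lower than in other B cells. TMM scaling gave 9 genes lower than in other B cells. A minimum of 50 UMIs gave 203 genes higher and 240 lower of 4237 in Glutoborin, and 24 higher and 11 lower than in other B cells. A minimum of 300 gave 4 and 23 of 689 in Glutoborin, with 6 of 9 type I genes lower, and 3 and 1 against other B cells. A 2-fold threshold gave 8 and 38 of 2397 in Glutoborin, and 2 and 0 against other B cells. Without the barcodes that stood apart, 33 of 1718 genes were higher in Glutoborin. Dividing at 2 Fcer2a UMIs left 86.1% of Glutoborin and 95.1% of Vehicle cells without it.

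Some single genes past 1.5-fold turned direction. For Cd93+ Vpreb3+ over other B cells in Vehicle, at least 2 Cd93 UMIs gave Iglc1 -0.039 and Cecr2 -0.44, and thinning gave Hmgb2 -0.63, H2afx -0.69, Iglc1 -0.029 and Tubb5 -0.15. In Glutoborin thinning gave Jchain -0.85 and Sox4 -0.78. For Glutoborin over Vehicle, Igkc had -0.37 thinned, -0.25 with Lyz2 at 0 and -0.12 without the barcodes that stood apart. With Lyz2 at 0, Mki67 had -0.19 and Iglc3 0.18 between libraries, Jchain had -5.80 and -3.82 in Glutoborin and Vehicle against other B cells, and Ighm -0.067 in Vehicle. Without the barcodes that stood apart, the ratios over other B cells were -2.05 and -0.065 for Top2a, -0.24 and -0.028 for Cks2, -0.27 in Vehicle for Pclaf, -0.19 in Glutoborin for Jchain and -0.22 in Vehicle for Tubb5. Among genes under 1.5-fold, Tubb5 in Glutoborin had -0.17 thinned and -0.18 without those barcodes, Ighm in Glutoborin -0.26 with Lyz2 at 0, and, at 2 Cd93 UMIs, Apoe in Glutoborin 0.89 and Serpina3g in Vehicle 0.046. The cause was not tested. Of all such values of single genes that kept their direction or lay under 1.5-fold, 433 stayed within their interval and 235 moved beyond it. Cd93 depth limits every result, as most cells qualified on 1 molecule.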
